A study of Homo sapiens with 6 samples.

Results

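The 7 mucin genes of airway epithelium MUC1, MUC13, MUC16, MUC4, MUC20, MUC5B and MUC5AC were followed in A549 cells with and without over-expression of the RNA-binding protein CELF6. They were taken by symbol, each as 1 of the 29889 rows of the gene count table, and all 7 had a row. A549 is an established human line of epithelial cells from a lung adenocarcinoma. The CELF6-OE group had been transfected with the pIRES-hrGFP-1a plasmid carrying CELF6, and the Control group with the same plasmid without the insert. Both groups received Lipofectamine 2000 and were harvested after 48 h. Each group held 3 biological replicates, read by strand-specific poly(A) RNA sequencing. Because the transfection was transient and the RNA came from the whole culture, each value averages over all cells of a dish, and fewer cells expressing a mucin cannot be told apart from less RNA per cell.

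Mucins are large glycoproteins whose repeated serine- and threonine-rich stretches carry dense O-linked sugars. The gel-forming mucins MUC5B and MUC5AC are secreted by goblet cells and submucosal glands and make up the mucus gel of the airway. The transmembrane mucins stay on the apical surface of the cell, where they form the layer beneath the mucus, and their tails can take part in signalling. MUC1, MUC4 and MUC16 are the best described of these on airway cells, and MUC1 and MUC16 are also measured as tumour antigens in the blood.

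Among these genes MUC1 and MUC13 were significantly down-regulated in CELF6-OE, to 36.0% and 40.0% of their Control level. MUC5B was lower by a smaller margin and did not reach the required fold, and MUC5AC was not detectably different. MUC16, MUC4 and MUC20 had 20 counts or fewer in every library. A gene was called changed at an adjusted p below 0.05 with a fold of at least 1.5, by edgeR's quasi-likelihood test fitted to 15847 genes with enough counts. Of the 4 members with enough counts, 2 were called lower and 0 higher, against 922 genes called lower (5.82% of those fitted) and 214 called higher (1.35%). At an unadjusted p under 0.05 with no minimum fold, 3 members were lower and 0 higher, against 18.0% and 14.8% of all fitted genes. DESeq2 called 2 members lower and 0 higher, against 5.23% and 1.07% of all fitted genes.

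The 6 libraries held 33748328 to 37920700 counted reads, with the 3 CELF6-OE libraries slightly below the 3 Control libraries. CELF6 itself had 18646, 20789 and 11571 counts in CELF6-OE replicates 1, 2 and 3 and 0 counts in each Control library, as the labels require. The 6 epithelial markers were all above 1 FPKM (fragments per kilobase of gene, scaled to sequencing depth) on average, and their summed FPKM ran from 5041 to 5793 in the CELF6-OE libraries and from 6177 to 7029 in the Control libraries. E-cadherin, CDH1, the adhesion protein of epithelial junctions, was the 1 of them called lower, with a log2 fold change of -1.62 (adjusted p = 0.000105, edgeR). The keratins KRT8 at -0.47 (adjusted p = 0.00532), KRT18 at -0.36 (adjusted p = 0.021) and KRT19 at -0.22 (adjusted p = 0.0362) passed the test but not the fold. EPCAM and KRT7 did not pass the test. Markers of leukocytes summed to between 3.69 and 5.06 FPKM in CELF6-OE, against 3.65 to 4.39 in Control. Of the 8 measured, 5 were below 0.1 in every library. Most of that sum was 1 gene, CD14, at 4.53, 3.29 and 3.57 FPKM in CELF6-OE against 3.29, 3.65 and 3.02 in Control. CD14 had a log2 fold change of 0.17 and did not pass the test (adjusted p = 0.443, edgeR). Markers of fibroblasts and endothelium reached at most 0.51 FPKM in sum. Alveolar type 2 markers summed to between 4.48 and 6.80 FPKM in CELF6-OE, against 18.9 to 20.0 in Control, and 6 of the 10 were below 0.1 in every library. Most of that difference was 1 gene, LAMP3, a lysosomal membrane protein of these cells, which was the only one of the 3 fitted to be called, at 2.89 FPKM in CELF6-OE and 16.4 in Control on average. ABCA3, a lipid transporter of the same cells, had 1.85 and 1.93 FPKM and did not pass the test (adjusted p = 0.572). NAPSA, the other marker fitted, had 17, 23 and 25 counts in CELF6-OE against 33, 37 and 54 in Control. Its log2 fold change was -0.86 (adjusted p = 0.0536, edgeR), lower in every CELF6-OE library but not called. Markers of ciliated and basal cells summed to between 496 and 521.7 FPKM in CELF6-OE, against 427.4 to 501.9 in Control, almost wholly from the tubulin gene TUBB4B, which averaged 511.3 and 463.6 FPKM and did not pass the test (adjusted p = 0.372). Only 1 of those 7 markers averaged 1 FPKM or more. PTPRC, which defines leukocytes, had 2 counts in Control replicate 1 and 0 elsewhere, and SFTPC, which defines alveolar type 2 cells, had at most 2 counts. In the other marker lists, the keratin KRT14 (2, 14 and 3 counts in CELF6-OE, 46, 41 and 27 in Control) and the integrin ITGAM were called lower. Within CELF6-OE, KRT14 reached the filter's minimum count of 10 in replicate 2 alone, so it was kept through the Control libraries, where it is high. PECAM1 (3, 3 and 5 counts against 11, 17 and 15) was also called, but it passed the filter on low counts through the Control libraries alone, so that a lower call was the only one open to it. The part of these markers in the mucin values was not tested.

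The promoters of MUC1 and MUC13 are shown because these were the members called lower. The RefSeq table used here (GRCh38.p14) held promoter windows, running from 250 bases before to 50 bases after a transcription start, for 4 of the 7 members, MUC1, MUC4, MUC13 and MUC16. MUC5B, MUC5AC and MUC20 are named only. The windows are at chr1:155192866-155193165 and chr3:124934702-124935001, both on the minus strand, and are written 5′ to 3′ with the motif matches in capitals.
MUC1: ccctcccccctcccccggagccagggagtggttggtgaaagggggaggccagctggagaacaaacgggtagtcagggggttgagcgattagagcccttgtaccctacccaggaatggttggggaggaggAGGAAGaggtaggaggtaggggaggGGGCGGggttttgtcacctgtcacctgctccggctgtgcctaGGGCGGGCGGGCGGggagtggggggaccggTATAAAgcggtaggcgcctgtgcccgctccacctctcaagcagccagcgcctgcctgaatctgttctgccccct
MUC13: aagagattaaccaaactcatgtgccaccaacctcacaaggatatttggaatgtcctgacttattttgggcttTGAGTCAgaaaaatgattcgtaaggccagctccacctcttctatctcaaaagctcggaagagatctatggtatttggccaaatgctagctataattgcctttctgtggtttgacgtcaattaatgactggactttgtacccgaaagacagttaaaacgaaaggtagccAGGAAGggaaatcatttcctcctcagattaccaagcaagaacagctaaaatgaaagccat
The MUC1 window had 65.7% G and C, and the MUC13 window had 41.0%, against a median of 58.7% over the 35116 windows of the table. In MUC1 the capitals mark, in order, AGGAAG (the ETS factor core), GGGCGG (the GC box of Sp1 and KLF factors) at 4 positions of which 3 overlap, and the TATA box TATAAA at -24 from the start. RefSeq holds 2 starts for MUC1, and the same TATA box is at -30 from the other, whose window is not printed. In MUC13 they mark the AP-1 site TGANTCA at -178 and AGGAAG at -10. The RefSeq start of MUC13 lies inside the longer gene model of GENCODE v44. Both strands were searched, and the ETS core was held by 33.6% of all windows, the GC box by 45.0%, the TATA box by 11.5% and the AP-1 site by 7.71%. The CCAAT box (its letters), the gamma-activated sequence TTCNNNGAA, the interferon response core GAAANNGAA and the NF-kB site had no match in either window, while 34.6%, 7.66%, 8.11% and 11.3% of all windows held them. These are letter matches and no binding was measured.

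MUC1 (ENSG00000185499) encodes a transmembrane mucin of most glandular epithelia whose outer subunit is held non-covalently and can be shed. It lies at chr1:155185824-155192916 on the minus strand (GRCh38, GENCODE v44). Its counts were 71, 53 and 71 in CELF6-OE against 180, 195 and 196 in Control. Every CELF6-OE library was below every Control library, with a wide gap between 71 and 180. Per length, the level was 0.420 ± 0.0781 FPKM (SD, n = 3) in CELF6-OE and 1.14 ± 0.0289 in Control. The log2 fold change was -1.47 ± 0.16 (SE), a 2.77-fold lower level with a 95% confidence interval of 28.3% to 45.8% of Control (adjusted p = 0.000113, quasi-likelihood test of edgeR, Benjamini-Hochberg method). Of all genes fitted, 1.57% had a lower log2 fold change.

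MUC13 (ENSG00000173702) encodes a transmembrane mucin with EGF-like domains that is abundant in the gut and also found in the airway. It lies at chr3:124905442-124953819 on the minus strand. Its counts were 641, 397 and 747 in CELF6-OE against 1870, 1516 and 1339 in Control. The groups did not overlap, although the spread within each was wider than for MUC1. The level was 5.73 ± 1.85 FPKM (SD, n = 3) in CELF6-OE and 14.1 ± 2.76 in Control. Its log2 fold change was -1.32 ± 0.20 (SE), a 2.50-fold lower level with a 95% confidence interval of 29.5% to 54.3% of Control (adjusted p = 0.00115, edgeR). The share of all fitted genes with a lower log2 fold change was 1.98%.

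The other transmembrane members were close to the limit of detection. MUC16 (ENSG00000181143, chr19:8848844-9010390, minus strand), the very long mucin that carries the CA125 antigen, had 2, 5 and 2 counts in CELF6-OE against 20, 10 and 12 in Control. Its groups did not overlap, but it was not kept among the 15847 genes. In a fit of all 29889 genes its log2 fold change was -2.11 ± 0.57 (SE; adjusted p = 0.0030), and it was called lower there together with MUC1 and MUC13, so 3 of 7 members, against 3.87% of all genes. That fit gives every gene the same prior spread, so the variation between replicates of MUC16 itself did not enter its p. Leaving out certain single libraries brought MUC16 into the filtered fit. It had fewer than 10 counts in every CELF6-OE library, so it passed the filter through the Control libraries alone. A lower call was therefore the only one open to it. Its adjusted p (edgeR) was 0.0302 without CELF6-OE replicate 2 and 0.0263 without Control replicate 2. It was 0.073 without CELF6-OE replicate 1 and 0.0539 without CELF6-OE replicate 3.

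MUC4 (ENSG00000145113, chr3:195746765-195811973, minus strand), a transmembrane mucin that binds ERBB2, had 4, 5 and 6 counts in CELF6-OE against 3, 10 and 7 in Control. MUC20 (ENSG00000176945, chr3:195720884-195741123, plus strand), a smaller mucin known to bind the MET receptor, had 3, 1 and 1 counts in CELF6-OE against 1, 4 and 4 in Control. For both genes the groups overlapped. In the fit of all genes the log2 fold change was -0.34 ± 0.62 (SE; adjusted p = 0.783) for MUC4 and -0.74 ± 1.01 (adjusted p = 0.684) for MUC20, so no difference was detectable at this depth. MUC20 also shares its strand and most of its span with the long non-coding gene LINC00969, which had 416, 453 and 397 counts in CELF6-OE against 287, 289 and 332 in Control, and how reads from the overlap were assigned is not given in the sources used here.

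MUC5B (ENSG00000117983, chr11:1223066-1262172, plus strand) is the gel-forming mucin of the submucosal glands and small airways. Its counts were 1318, 1001 and 1380 in CELF6-OE against 2298, 1823 and 1553 in Control. As CPM (counts scaled to library size), the highest CELF6-OE library, at 40.4, was just below the lowest Control library, at 42.6. The level was 1.91 ± 0.352 FPKM (SD, n = 3) in CELF6-OE and 2.72 ± 0.608 in Control. The log2 fold change of -0.54 ± 0.15 (SE) passed the test but not the fold required, at 68.9% of Control with a 95% confidence interval of 54.7% to 86.7% (adjusted p = 0.0313, edgeR). MUC5B depended on single libraries. It was called lower without CELF6-OE replicate 3 (log2 fold change -0.65, adjusted p = 0.0215) or without Control replicate 3 (-0.65, adjusted p = 0.00408). The adjusted p rose to 0.0695 without CELF6-OE replicate 1, to 0.115 without CELF6-OE replicate 2 and to 0.0777 without Control replicate 2.

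MUC5AC (ENSG00000215182, chr11:1157953-1201138, plus strand), the gel-forming mucin that goblet cells make on stimulation, lies next to MUC5B on the same strand, 21927 bp away. Its counts were 166, 145 and 136 in CELF6-OE against 192, 162 and 140 in Control. The groups overlapped in every unit, with 0.233 ± 0.0231 FPKM (SD, n = 3) in CELF6-OE and 0.243 ± 0.0451 in Control. The log2 fold change was -0.07 ± 0.15 (SE; adjusted p = 0.778, edgeR), and its 95% confidence interval ran from 0.761 to 1.19 of Control, which leaves room for a modest change in either direction.

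In all, 3 of the 4 members fitted, MUC1, MUC13 and MUC5B, had CPM values that were lower in every CELF6-OE library than in every Control library, as did 20.0% of all genes fitted. For MUC16, which was not fitted, the same held. An exact permutation test of CPM over the 6 libraries gave a two-sided p of 0.1 for each of these 4 genes, the smallest that 3 against 3 libraries allow, and 0.7 for MUC5AC, 0.8 for MUC4 and 0.4 for MUC20.

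**Figure D1:**
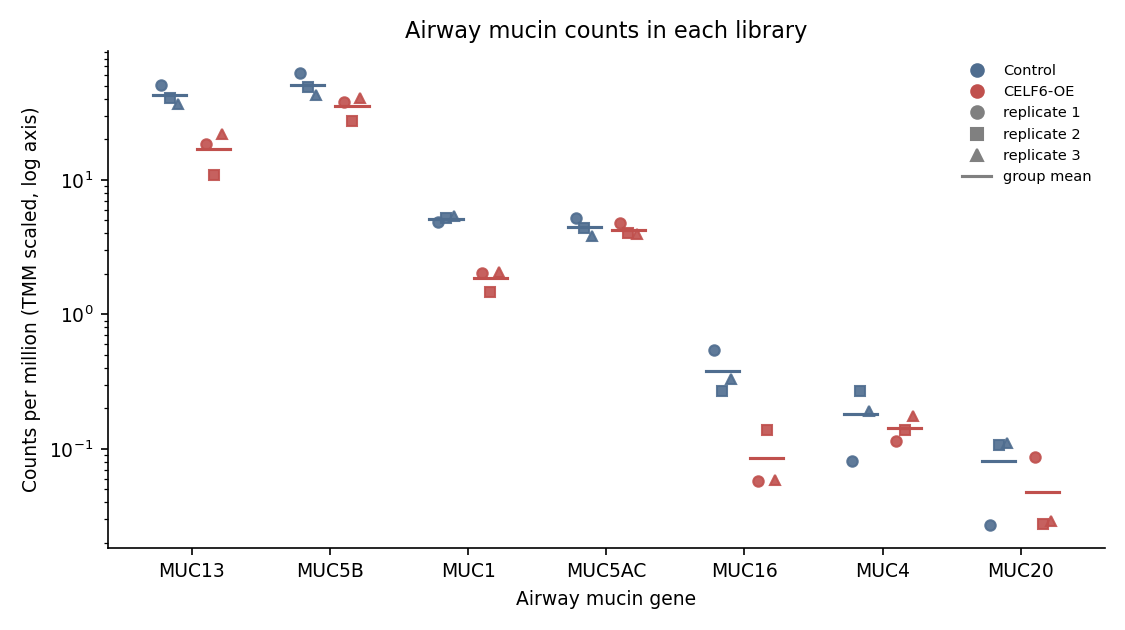
CPM (log axis, TMM scaled) of the 7 mucin genes in each of the 3 CELF6-OE and 3 Control libraries; points are libraries and bars are group means. MUC1, MUC13, MUC5B and MUC16 show no overlap between groups, while MUC5AC, MUC4 and MUC20 do; CPM is not per length, so heights of different genes are not comparable.

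The plot of fold changes sets the 4 fitted members beside the related genes described further on. The median over the 4 fitted members was -0.93, and the median over all fitted genes was 0.01. The interval of MUC5AC lay apart from those of MUC1 and MUC13, while that of MUC5B overlapped MUC5AC.

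**Figure D2:**
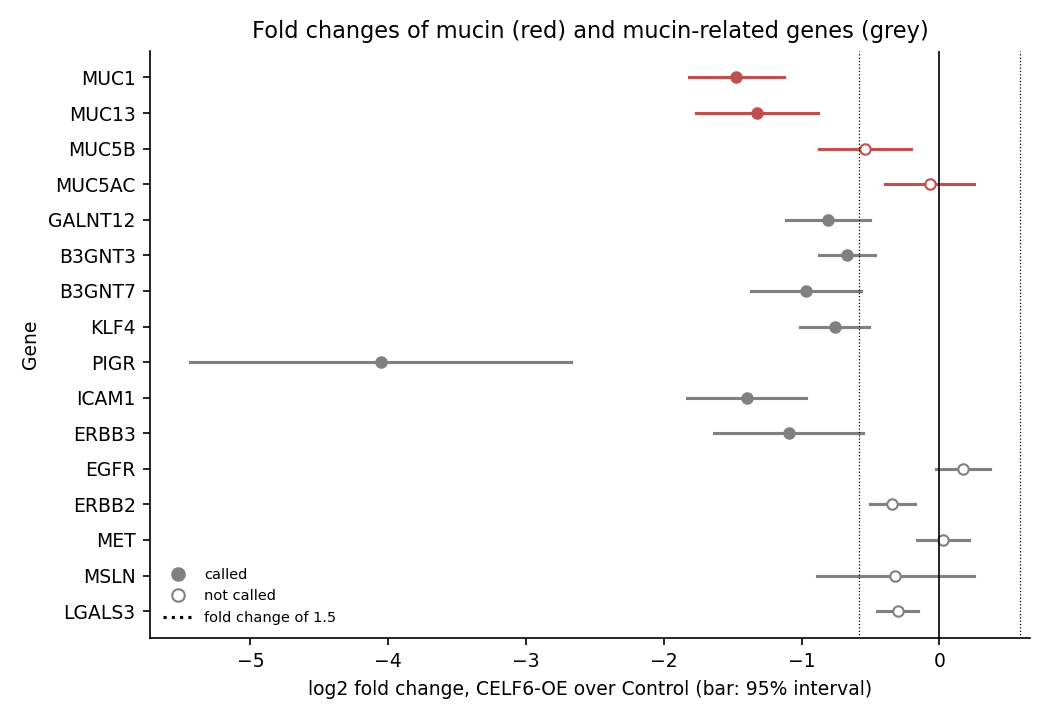
Log2 fold change (CELF6-OE over Control) with its 95% confidence interval for the 4 fitted mucins (red) and for named glycosylation, secretory and partner genes (grey); filled points were called and dotted lines mark a fold of 1.5. MUC1 at -1.47 and MUC13 at -1.32 lie beyond the dotted line with their whole interval, MUC5B at -0.54 straddles it and MUC5AC at -0.07 straddles 0.

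Some libraries stood on the same side of their group for several mucins. CELF6-OE replicate 2 was the lowest of its group for MUC1, MUC5B and MUC13, by 0.32, 0.33 and 0.58 on the log2 CPM scale below the group mean, and it also had the highest CELF6 count. Control replicate 1 was the highest of its group for MUC5B, MUC13 and MUC5AC, by 0.29, 0.26 and 0.23. The remaining fitted member differed in each case. For MUC1, Control replicate 1 was the lowest of its group, at -0.08 from the mean. For MUC5AC, CELF6-OE replicate 3 was the lowest, at -0.09. With 3 libraries a group, no relation between CELF6 and mucin levels was tested. The biological coefficient of variation fitted by edgeR was 10.1% for MUC1, 10.9% for MUC5AC, 13.1% for MUC5B and 17.1% for MUC13, against 8.62% as the common value.

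Ratios between mucins within a library do not depend on how libraries are scaled to each other. The ratio of MUC5B to MUC13 counts was 2.06, 2.52 and 1.85 in CELF6-OE and 1.23, 1.20 and 1.16 in Control, so the Control libraries were nearly equal and every CELF6-OE library was above them. The ratio of MUC1 to MUC5AC was 0.428, 0.366 and 0.522 in CELF6-OE and 0.938, 1.20 and 1.40 in Control. The neighbours MUC5AC and MUC5B differed from each other as well, with a MUC5AC to MUC5B ratio of 0.126, 0.145 and 0.0986 in CELF6-OE and 0.0836, 0.0889 and 0.0902 in Control. By contrast MUC1 to MUC13 was 0.111, 0.134 and 0.0951 in CELF6-OE and 0.0963, 0.129 and 0.146 in Control, and the groups overlapped. Over the 6 pairs of the 4 fitted members, 5 ratios did not overlap between groups, each with an exact two-sided permutation p of 0.1 (0.12 after Benjamini-Hochberg adjustment over the 6), and MUC1 to MUC13 had p = 0.7. Since 3 against 3 libraries cannot go below 0.1, none of the ratios could pass 0.05. The 6 ratios are formed from 4 genes, so they are not independent and restate the fold changes given above. How many ratios of other gene pairs do not overlap was not counted.

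**Figure D3:**
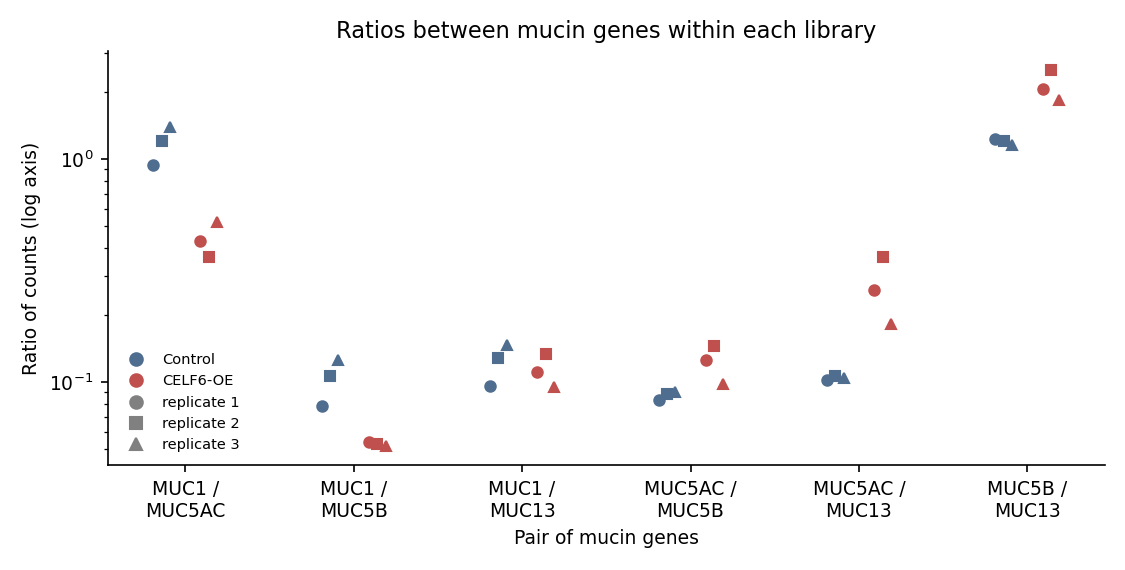
Count ratios (log axis) of the 6 pairs of fitted mucins in each of the 3 CELF6-OE and 3 Control libraries. The groups are apart for 5 pairs, including MUC5B to MUC13 (1.85 to 2.52 against 1.16 to 1.23), and overlap for MUC1 to MUC13.

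Levels of different mucins were compared per length, in FPKM. In both groups the order was MUC13, MUC5B, MUC1, MUC5AC, and in each group the lowest library of 1 gene was above the highest of the next. In Control the lowest MUC13 value was 11.8 and the highest MUC5B value 3.39, and in CELF6-OE they were 3.72 and 2.18. MUC16, MUC4 and MUC20 were at or near the deposited rounding step of 0.01 FPKM and were not ordered. Among 16948 protein-coding genes, MUC13 went from percentile 78.9 of the Control mean to 65.7 of the CELF6-OE mean. MUC5B went from 53.4 to 48.2, MUC1 from 41.4 to 32.4 and MUC5AC from 27.8 to 28.2.

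Summed over the 7 genes, mucin FPKM was 8.91, 5.80 and 10.2 in CELF6-OE and 22.0, 17.4 and 15.4 in Control, with no overlap. MUC13 made up 68.2% ± 3.85 (SD, n = 3) of the sum in CELF6-OE and 77.2% ± 0.822 in Control. MUC5B made up 23.4% ± 2.43 in CELF6-OE and 14.9% ± 0.576 in Control. MUC1 held 5.15% ± 0.550 and 6.42% ± 1.26, and MUC5AC held 2.95% ± 0.823 and 1.33% ± 0.0421, in the same order. The gel-forming pair thus held a larger share of a smaller sum in CELF6-OE. The mucins consist largely of repeats, and only uniquely placed reads were counted, so lengths and levels between genes carry an error that was not tested.

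**Figure D4:**
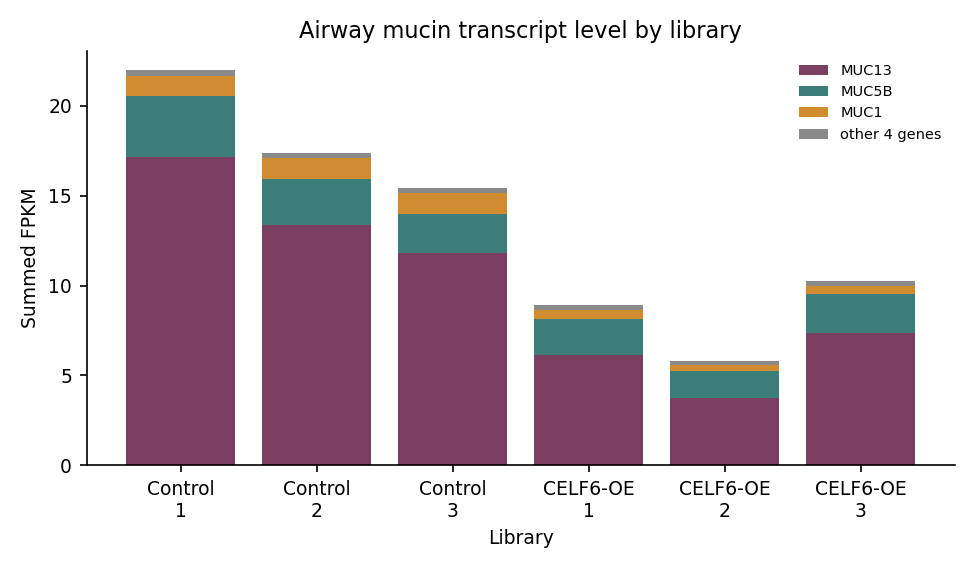
Summed FPKM of the 7 mucin genes per library, stacked by gene, with MUC5AC, MUC16, MUC4 and MUC20 drawn together as the top part. The 3 CELF6-OE libraries reach 5.80 to 10.2 FPKM and the 3 Control libraries 15.4 to 22.0, with MUC13 the largest part of each bar.

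The genes beside the fitted mucins were not called. TRIM46, 852 bp from MUC1, had a log2 fold change of 0.01 (adjusted p = 0.979, edgeR), and RP11-263K19.4 on its other side had -0.17 (adjusted p = 0.759). RP11-201K10.3 overlaps MUC1 on the same strand and had 9, 10 and 12 counts in CELF6-OE against 16, 13 and 19 in Control (log2 fold change -0.55, adjusted p = 0.266). Beside MUC13, the integrin gene ITGB5 had a log2 fold change of -0.25 (adjusted p = 0.0173) and HEG1, which encodes a mucin-like membrane protein, -0.54 (adjusted p = 0.00674), both below the fold required. At the MUC5AC and MUC5B cluster, AP2A2 had a log2 fold change of 0.00 (adjusted p = 0.973) and TOLLIP, an inhibitor of Toll-like receptor signalling, -0.06 (adjusted p = 0.570).

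Genes whose 6 libraries tracked each mucin most closely were found by the root mean square difference of centred log2 CPM. For MUC13 they were FGA, the fibrinogen alpha chain, at 0.0875, the tight junction protein TJP3 at 0.0933 and the calcium-binding protein S100P at 0.115. All 3 were called lower, by 1.20, 1.22 and 1.27 on the log2 scale respectively, as follows from the match to a gene called lower. For MUC1 they were the receptor CD40 at 0.109, LY6E at 0.118 and vitronectin, VTN, at 0.121. For MUC5B they were TM4SF4 at 0.0395, NKD1 at 0.0510 and CTBS at 0.0524. MUC5AC was closest to CAMLG at 0.0405, CENPQ at 0.0410 and XPA at 0.0435.

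The 15 other mucin and mucin-like genes listed were looked at next. Of these, 12 had a row, 5 had enough counts and 0 were called by edgeR in either direction. At an unadjusted p under 0.05, 1 was lower, and DESeq2 called 0. Among all fitted genes edgeR called 5.82% lower and 1.35% higher, and 18.0% were lower at that unadjusted p. MUC12 and MUC3A, transmembrane mucins of the gut, had log2 fold changes of 0.37 (adjusted p = 0.503) and -0.14 (adjusted p = 0.609). MUC2, the gel-forming mucin of the gut, had 1, 3 and 1 counts in CELF6-OE against 0, 4 and 3 in Control.

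The genes that build, make or bind mucins were taken as 6 further lists. Together with the other mucins these 7 lists held 91 fitted genes, of which 18 were called lower and 0 higher. Among all fitted genes 5.82% were called lower and 1.35% higher. At an unadjusted p under 0.05 with no minimum fold, 42 of the 91 were lower and 8 higher, against 18.0% and 14.8% of all fitted genes. DESeq2 called 16 lower and 0 higher, against 5.23% and 1.07%. Without Control replicate 1, 1 gene of these lists was called higher, the sheddase ADAM9 (log2 fold change 0.65, adjusted p = 0.000584, edgeR).

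The goblet and secretory cell genes held the most calls, with 9 of 17 fitted genes lower, 0 higher and a median log2 fold change of -0.59. Among all fitted genes 5.82% were called lower and 1.35% higher, and the median was 0.01. PIGR, the receptor that carries antibodies into mucus, had 2, 0 and 2 counts in CELF6-OE against 37, 24 and 15 in Control. It reached the filter on low counts in no CELF6-OE library, so a lower call was the only one open to it, and without it the count is 8 of 16. KLF4, a transcription factor of epithelial differentiation, had 252, 276 and 211 counts in CELF6-OE against 413, 431 and 471 in Control (log2 fold change -0.76, adjusted p = 0.0010). KLF4 was lower in every CELF6-OE library. Others were picked after their values were seen. AGR2, the disulfide isomerase that folds mucins, had 7426, 4933 and 7566 counts in CELF6-OE against 14406, 12602 and 9821 in Control (log2 fold change -0.80, adjusted p = 0.00822). TFF1, a small peptide secreted with mucus, had 67, 26 and 66 counts in CELF6-OE against 170, 138 and 143 in Control (log2 fold change -1.42, adjusted p = 0.0048). In both of these CELF6-OE replicate 2 was the lowest library, as it was for MUC13. SPDEF, the goblet cell transcription factor, had 193, 107 and 167 counts in CELF6-OE against 229, 217 and 180 in Control and did not pass the test (adjusted p = 0.257). In the other direction, the adhesion protein CEACAM6 at a log2 fold change of 0.32 (adjusted p = 0.026) and the transcription factor FOXM1 at 0.29 (adjusted p = 0.0117) passed the test but not the fold.

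Enzymes of O-glycosylation, which attach and extend the sugars of mucins, gave fewer calls than the goblet and secretory cell genes. Among all fitted genes 5.82% were called lower and 1.35% higher. Of 14 fitted O-GalNAc transferases, which add the first sugar, 1 was lower and 0 higher, near those shares, with a list median of 0.02. This was GALNT12, with 113, 128 and 114 counts in CELF6-OE against 234, 239 and 181 in Control (log2 fold change -0.81, adjusted p = 0.00241, edgeR). Another 5 passed the test but not the fold, of which GALNT10 at a log2 fold change of 0.24 (adjusted p = 0.0193) and GALNT11 at 0.37 (adjusted p = 0.0309) were higher and GALNT5, GALNT14 and GALNT18 were lower. Of 20 fitted extension enzymes 4 were lower, with a median of -0.22. They included B3GNT3, which extends core 1 chains, at a log2 fold change of -0.67 (adjusted p = 0.000592), and B3GNT7 at -0.97 (adjusted p = 0.00435).

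Among 15 partners and sheddases of mucins, 2 were lower and 0 higher, against 5.82% and 1.35% of all fitted genes. ICAM1, an adhesion receptor that binds MUC1, had 97, 170 and 176 counts in CELF6-OE against 377, 372 and 479 in Control (log2 fold change -1.40, adjusted p = 0.000669). ERBB3, a receptor of the EGFR family, had a log2 fold change of -1.09 (adjusted p = 0.0115). The other named partners were not called. EGFR had a log2 fold change of 0.17 (adjusted p = 0.202), MET, the partner of MUC20, 0.03 (adjusted p = 0.854) and mesothelin, MSLN, the ligand of MUC16, -0.32 (adjusted p = 0.422). ERBB2, the partner of MUC4, at -0.34 (adjusted p = 0.00939) and the galectin LGALS3 at -0.30 (adjusted p = 0.0105) passed the test but not the fold.

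Of 14 fitted signals known to induce mucins, 1 was lower and 0 higher, against 5.82% and 1.35% of all fitted genes. The gene called was the cytokine IL6, with 57, 112 and 87 counts in CELF6-OE against 305, 310 and 289 in Control (log2 fold change -1.75, adjusted p = 9.37e-05, edgeR). IL6R was higher at a log2 fold change of 0.39 (adjusted p = 0.0339), past the test but not the fold. AREG, IL13RA1, IL4R and NFKBIZ were lower, also past the test but not the fold. Of 6 fitted genes of mucus ion and water transport, 1 was lower and 0 higher, against the same shares of all fitted genes. The gene called was the anion channel SLC26A9, with 25, 16 and 28 counts in CELF6-OE against 64, 55 and 44 in Control (log2 fold change -1.16, adjusted p = 0.0115).

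**Figure D5:**
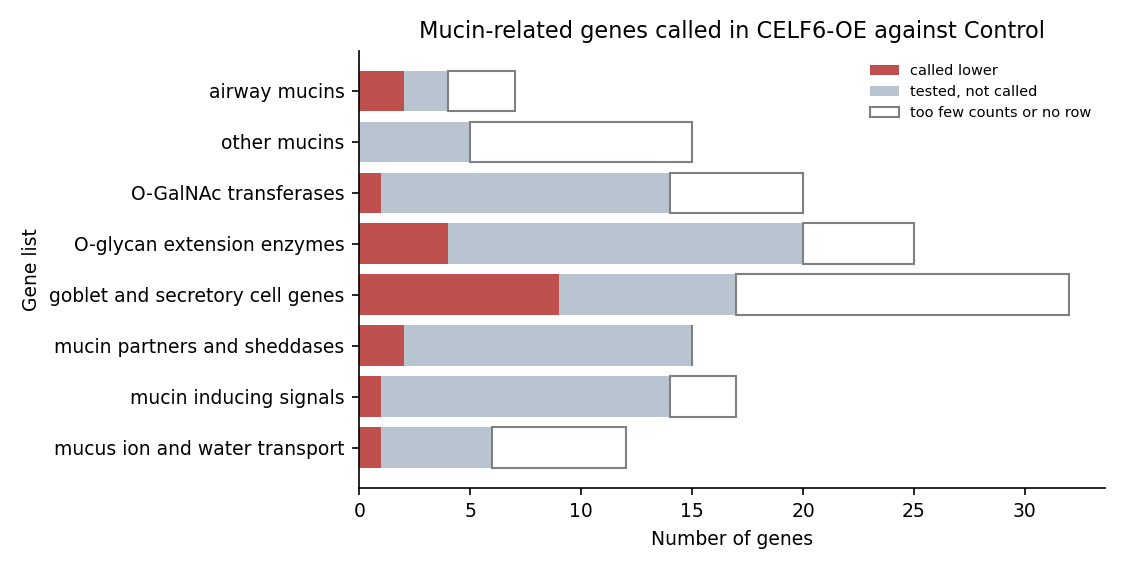
Number of genes in the airway mucin list and the 7 mucin-related lists (horizontal axis), split into genes called lower in CELF6-OE (red), tested but not called (blue-grey) and without a row or enough counts (white). Goblet and secretory cell genes hold 9 calls among 17 tested, the airway mucins 2 among 4 and the other mucins 0 among 5. Of all fitted genes 5.82% were called lower. None of the genes drawn was called higher with all 6 libraries. PIGR, 1 of the 9 goblet and secretory calls, could be called in no other direction.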

How the data were processed

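Per the labels and the study's methods, the authors used the FASTX-Toolkit for trimming and TopHat2 for alignment to GRCh38, and counted uniquely placed reads per gene. The authors deposited the counts, not normalized, and FPKM values rounded to 0.01. Not given in the sources used here are the counting tool, whether it used strand, and the annotation release. Groups came from the sample labels. Replicates were stated to be biological.

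Counts were fitted with edgeR 4.0.16 in R 4.3.3 (TMM scaling, filterByExpr with a minimum count of 10, glmQLFit and glmQLFTest), CELF6-OE against Control, with Benjamini-Hochberg adjustment over 15847 genes and a prior count of 0.125 for fold changes. A change was called at an adjusted p under 0.05 and a fold of 1.5. Alternatives used DESeq2 1.42.0 and limma 3.58.1. The fit was tested on simulated data. FPKM, as deposited, was used to give levels, sums and shares of genes in both groups, and no test was run on it. Depth was 33748328 to 37920700 counts a library. Coordinates are from GENCODE v44. Besides the members, CELF6 and 5 partners, the rule named the 2 genes called in each direction with the smallest p in each list, the nearest fitted and the overlapping genes, and the 3 closest profiles of each fitted member. Other genes (AGR2, TFF1, SPDEF, CEACAM6, FOXM1, ADAM9, MUC2, MUC3A, MUC12, ABCA3, TUBB4B, PTPRC, SFTPC and the transferases beside GALNT12) were named after their values were seen. So were NAPSA, CD14, EPCAM, KRT7, KRT8, KRT18, KRT19, IL6R, AREG, IL13RA1, IL4R and NFKBIZ. Members and lists were chosen with earlier results of these data known.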

Additional observations from a re-analysis of the deposited data

How the results depend on the processing

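Over 19 alternatives MUC1 and MUC13 stayed called lower, with log2 fold changes of -1.56 to -1.33 and -1.54 to -1.09. MUC5B ranged from -0.65 to -0.39 with an adjusted p under 0.05 in 15 of 19 and up to 0.115 otherwise, including 0.0661 when scaled by library size alone. Settings that changed only the calling rule or the prior count are among the 15. They repeat the main adjusted p of 0.0313 (edgeR) and could not move it. MUC5AC reversed to 0.044 without Control replicate 1 (adjusted p = 0.857), and ranged from -0.17 to 0.044 as 1 library was left out. Without a filter on low counts 3 members were called lower (MUC1, MUC13 and MUC16), and without a minimum fold also 3 (MUC1, MUC13 and MUC5B). For all genes, calls lower and higher were 475 and 64 at a fold of 2, and 1820 and 1025 with no minimum fold. Leaving out 1 library gave 672 to 989 genes lower and 107 to 371 higher, the latter falling to 107 without CELF6-OE replicate 2 and 115 without Control replicate 2 and rising to 371 without Control replicate 1; the cause was not tested. In fits added after the data were seen, leaving out 1 library gave 15 to 18 genes lower over the mucin-related lists and 6 to 9 among the goblet and secretory cell genes, and 0 to 1 genes higher, the 1 (ADAM9) without Control replicate 1.

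Over all fitted genes, replicate numbers did not pair the samples. Same-numbered libraries had correlations of -0.0113, -0.0212 and -0.0722, and 0 of 6 correlated best with their own number. With the replicate number as a block, 2 members were called lower (MUC1 at -1.48 and MUC13 at -1.36) and 0 higher. Among all genes 921 were lower and 201 higher, with 18 genes of the lists lower. The adjusted p (edgeR) with the block was 5.69e-05 for MUC1, 4.62e-05 for MUC13 and 0.00918 for MUC5B, each below its main value. For MUC5AC it rose to 0.804, and MUC5B at -0.54 stayed short of the fold. On FPKM, the log2 ratio of MUC1 was -1.45, and -0.59 with a pseudocount of 1, since the level is low. For MUC16, MUC4 and MUC20 the depth was too low for a firm value.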
